A study of Mus musculus with 6 samples.

Results

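Imprinted genes are transcribed mainly from the copy inherited from one parent, and 35 of them were followed here by name through a gene table that holds 51482 measurements. All 35 symbols were found, in 35 different measurements, and the authors tested 22 of these. The cells were wild-type (WT) mouse embryonic fibroblasts immortalised with SV40, a virus whose large T antigen lets primary cells go on dividing. In 3 samples the cells were kept at 21% oxygen (normoxia) and in 3 samples at 0.5% oxygen (hypoxia), for 16 h in both groups, and the series' design calls the replicates biological. Strain and embryo of origin are not given in the sources used here, and all 6 samples carry the same immortalisation.

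Imprinted genes lie in clusters, called domains, in which a stretch of DNA methylated on only one parental copy, the imprinting control region, sets which copy is read. Many paternally expressed genes favour growth of the embryo and placenta and many maternally expressed ones restrain it, and most are high before birth and low later. Long noncoding RNAs such as Airn and Kcnq1ot1 silence neighbouring genes on the copy from which they are transcribed. The table gives the summed transcript of both copies, so it shows how much of each RNA was present and not which parental copy made it.

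Values are FPKM, fragments scaled to the length of the transcript and the size of the library, and each gene has a single level for the 3 normoxia samples and a single level for the 3 hypoxia samples. Levels of single samples, their spread and their overlap therefore cannot be shown, no SD can be given, and the depth is unknown. The words rose and fell are used only of genes that passed q below 0.05 in the authors' deposited table. By that rule 57.9% of the 14575 tested measurements were called, 28.9% as higher and 29% as lower in hypoxia. The smallest q, 0.000139 in the authors' deposited table, is shared by 5148 tested measurements, so it does not rank them. Each gene said below to have risen or fallen has that q unless another is given.

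In hypoxia 7 imprinted members rose, 6 fell and 9 were tested without a call. The 13 called members make 59.1% of the 22 tested, beside the 57.9% of all tested measurements. The members that rose were H19, Rasgrf1, Snrpn, Ube3a, Igf2r, Usp29 and Gnas, and those that fell were Mest, Peg3, H13, Peg10, Dcn and Impact. A called change of at least 2-fold was found for 18.9% of all tested measurements. It was found for 4 members that rose (H19, Rasgrf1, Snrpn and Ube3a), beside 9.03% of all tested measurements, and for 1 that fell (Mest), beside 9.87%. The members most changed were Mest, at 71.2 FPKM (normoxia) and 7.62 FPKM (hypoxia), and H19, at 0.207 FPKM and 2.08 FPKM. Among the called members Snrpn, Ube3a, Usp29, Gnas and Mest share 10% or more of their exon bases with other genes, and among members that share less, 3 rose and 5 fell. In RNA from a whole culture, fewer cells that express a gene and less RNA per cell cannot be told apart.

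**Figure D1:**
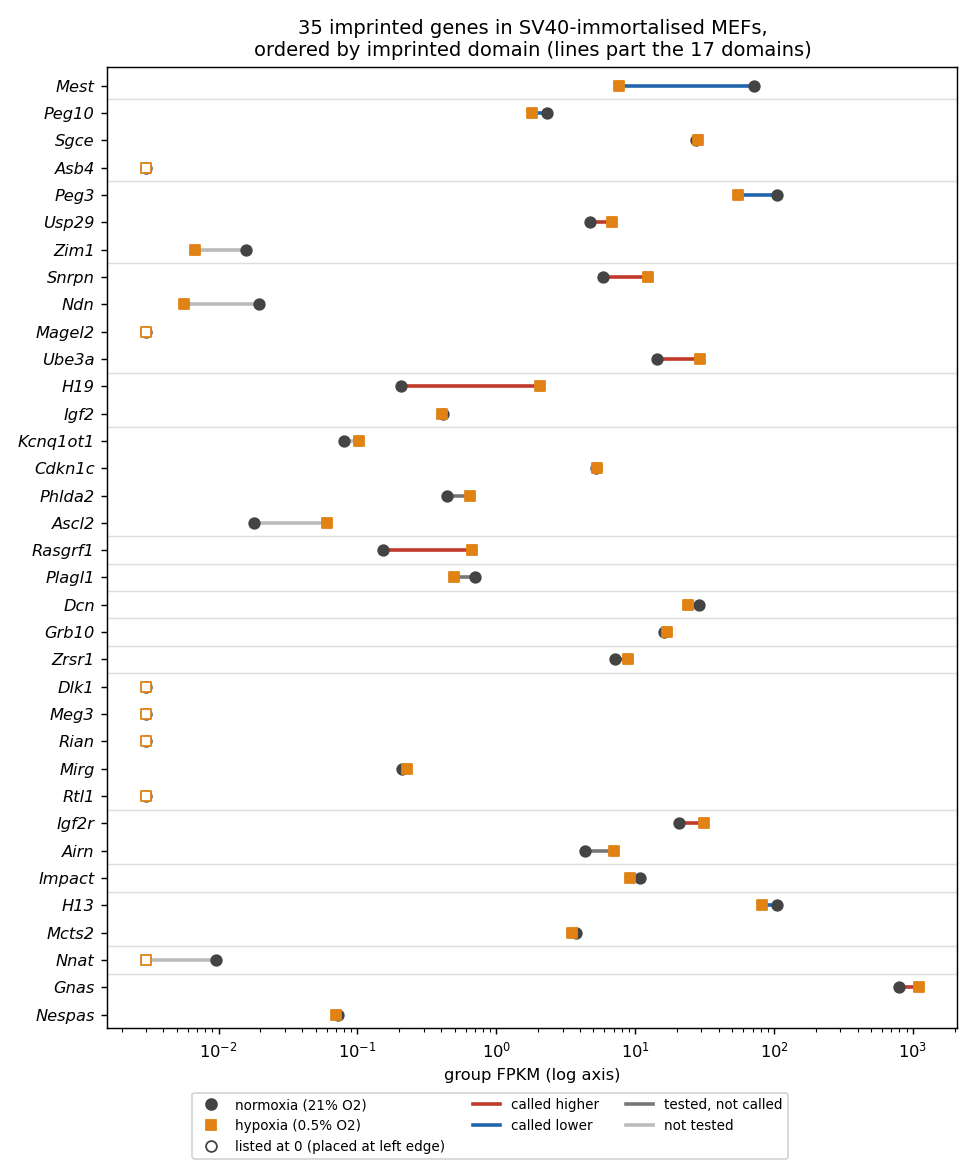
FPKM of each imprinted member in normoxia and hypoxia (log axis; 1 point per group, the authors' combined value, without error bars), grouped by domain; open symbols at the left edge mark genes listed at 0. Mest lies at 71.2 FPKM (normoxia) and 7.62 FPKM (hypoxia), H19 at 0.207 FPKM and 2.08 FPKM, and Gnas is the highest member in both groups.

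The sequences just before the starts of some of these genes are printed first, because the motifs in them are those on which oxygen-dependent and imprint-protecting factors are known to act. They are from RefSeq on GRCm38.p6, which has promoter entries for 27 of the 35 members. H19, Cdkn1c, Dcn, Impact, Nespas, Peg10, Rtl1 and Sgce have none. Windows of 250 bases before the start were searched on both strands for ACGTG and GCGTG, the core to which hypoxia-inducible factors bind, and for TGCCGC, the motif of the imprint-protecting zinc finger protein ZFP57. CACGTG reads as ACGTG on both strands and counts as 2 matches. Matches are in capitals. Mest, the member that fell most, has 3 windows. The one printed (chr6:30737800-30738049, plus strand) has 2 TGCCGC matches in capitals, read on the other strand, another that is shifted by 3 bases holds the same sites, and the third holds none. The Rasgrf1 window (chr9:89909525-89909774, plus strand) holds 3 GCGTG matches. The stretch between the RefSeq starts of Peg3 and Usp29 (chr7:6730420-6730582, plus strand, 163 bases) is shown because these genes run apart from it and moved in opposite directions, and it holds 1 GCGTG match, read on the other strand. The Igf2r window (chr17:12769707-12769956, minus strand) holds 2 CACGTG sites and 2 GCGTG matches.
Mest: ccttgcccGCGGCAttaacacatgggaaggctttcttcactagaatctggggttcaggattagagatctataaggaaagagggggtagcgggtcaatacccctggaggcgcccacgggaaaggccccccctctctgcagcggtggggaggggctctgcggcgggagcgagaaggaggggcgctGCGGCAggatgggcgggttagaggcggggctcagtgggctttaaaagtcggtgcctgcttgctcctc
Rasgrf1: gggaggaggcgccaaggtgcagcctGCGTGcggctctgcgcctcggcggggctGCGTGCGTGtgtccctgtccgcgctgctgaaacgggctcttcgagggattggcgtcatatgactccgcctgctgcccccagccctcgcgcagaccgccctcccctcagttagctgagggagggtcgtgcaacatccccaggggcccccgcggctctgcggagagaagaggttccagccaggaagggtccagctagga
Peg3-Usp29: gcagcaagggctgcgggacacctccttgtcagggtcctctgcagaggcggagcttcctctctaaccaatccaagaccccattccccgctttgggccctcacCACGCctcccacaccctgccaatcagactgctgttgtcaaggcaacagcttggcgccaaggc
Igf2r: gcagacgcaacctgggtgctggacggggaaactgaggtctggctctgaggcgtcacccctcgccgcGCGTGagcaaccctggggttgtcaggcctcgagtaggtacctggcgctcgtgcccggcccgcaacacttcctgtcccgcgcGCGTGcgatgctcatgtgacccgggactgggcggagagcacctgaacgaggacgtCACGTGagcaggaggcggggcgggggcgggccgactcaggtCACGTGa
A match is a run of letters, and no binding was measured. ACGTG or GCGTG stood in 24 of the 41 windows of the members and in 38.6% of the 32851 windows of all genes. Members that did not rise held such matches as well. The Plagl1 window held 2 ACGTG and 2 GCGTG and the Mcts2 window 3 ACGTG, both without a call. The window of H13, which fell, held 1 GCGTG, and that of Ube3a, which rose, held 2. Whether the matches go with the calls was not tested. TGCCGC stood in 6 of the 41 windows, of which 2 are the overlapping Mest windows, and in 8.68% of all windows. The other member windows with it belong to Plagl1 and Mcts2, which were tested without a call, and to Zim1 and Meg3, which were not tested. The member windows held a median of 10 CpG dinucleotides and all windows a median of 6. All of these motifs contain a CpG, and some genes have several overlapping windows.

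Mest and H19 are also hosts of microRNAs, whose mature forms are printed 5′ to 3′ with the seed, bases 2 to 8, in capitals. The Mir335 hairpin lies within Mest and the Mir675 hairpin within H19.
miR-335-5p: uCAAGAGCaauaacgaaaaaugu
miR-335-3p: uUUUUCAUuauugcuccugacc
miR-675-5p: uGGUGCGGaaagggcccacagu
miR-675-3p: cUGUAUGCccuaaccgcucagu
The 4 seeds differ from one another, and none of them is shared with another of the 1679 mature names in the RefSeq table. Libraries from poly-A selected RNA hold the host transcript and not the mature microRNA. Mir335 has a row of its own that is listed at 0 in both groups, while Mir675 shares its measurement with H19, so no value below is a microRNA level.

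Mest (mesoderm specific transcript, a paternally expressed member of the hydrolase fold family; chr6:30723547-30748465, plus strand, GRCm38) fell 9.34-fold. In normoxia its level was above that of 90.2% of the tested measurements, and in hypoxia above that of 43.9%. Among the 4227 measurements called lower in the authors' deposited table, its log2 fold change of -3.22 ranks 50. The 3′ end of Mest overlaps that of Copg2, a coat protein gene on the other strand, and 912 exon bases are shared, 23.1% of the exon bases of Mest. Copg2 stood at 26.8 FPKM (normoxia) and 29.9 FPKM (hypoxia), with q = 0.344 in the authors' deposited table. The level of Mest was thus 2.66 times that of Copg2 in normoxia and 0.255 times that in hypoxia. The nearest tested gene outside the imprinted lists on one side, Cep41, a gene of the centrosome and cilium, fell from 7.44 FPKM to 3.32 FPKM, and on the other side Lncpint, a long noncoding RNA, rose from 0.0225 FPKM to 0.309 FPKM (q = 0.0329 in the authors' deposited table).

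At the H19-Igf2 domain the noncoding RNA of the maternal copy and the growth factor gene of the paternal copy were both low in normoxia. H19 (chr7:142575529-142578143, minus strand) rose 10.01-fold, from 0.207 FPKM to 2.08 FPKM, and ranks 73 among the 4219 measurements called higher in the authors' deposited table. Igf2, the fetal insulin-like growth factor, was at 0.415 FPKM (normoxia) and 0.407 FPKM (hypoxia), with q = 0.960 in the authors' deposited table. Its measurement also carries the name of an overlapping transcript, and exons of another gene on the same strand cover 62.8% of its exon bases. The genes lie 72622 bases apart and are known to share enhancers. H19 stood at 0.500 times the level of Igf2 in normoxia and at 5.10 times that level in hypoxia. Mrpl23, a mitochondrial ribosome protein gene next to the domain, was at 48.3 FPKM and 48.4 FPKM (q = 0.980 in the authors' deposited table).

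At the Peg3 domain the divergent neighbours moved in opposite directions. Peg3 (chr7:6703892-6730431, minus strand), a paternally expressed zinc finger protein gene, fell 1.92-fold, from 105 FPKM to 55.0 FPKM. Usp29 (chr7:6730578-6967219, plus strand), a paternally expressed ubiquitin protease gene whose outermost annotated 5′ end lies 147 bases away, rose 1.44-fold, from 4.73 FPKM to 6.83 FPKM. Peg3 stood at 22.3 times the level of Usp29 in normoxia and at 8.04 times that level in hypoxia. Exons on the other strand cover 14.3% of the exon bases of Usp29, and Zim3, whose exons these are, was at 0.00306 FPKM and 0.00322 FPKM. Zim1, a maternally expressed zinc finger gene of the domain, was not tested and was at 0.0158 FPKM and 0.00671 FPKM.

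Snrpn and Ube3a, in the domain of the Prader-Willi and Angelman syndromes, both rose about as much. Snrpn (chr7:59982495-60140219, minus strand), which encodes a splicing protein and is read from the paternal copy, rose 2.103-fold, from 5.87 FPKM to 12.3 FPKM (q = 0.00629 in the authors' deposited table). Its measurement is shared with Snurf, an upstream reading frame of the same transcript, and with Gm38393. Ube3a (chr7:59228750-59311536, plus strand), a ubiquitin ligase gene that is imprinted in neurons and read from both copies in most other cells, rose 2.03-fold, from 14.4 FPKM to 29.4 FPKM. In neurons the noncoding RNA Snhg14 runs across Ube3a on the other strand, and exons of such genes cover 27.3% of the exon bases of Ube3a. The one measurement of Snhg14 above 0 was at 0.0237 FPKM (normoxia) and 0.0299 FPKM (hypoxia). Ndn, a melanoma antigen family gene of the domain, was not tested and was at 0.0194 FPKM and 0.00559 FPKM, and its relative Magel2 was listed at 0 in both groups.

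At the Igf2r-Airn domain both the receptor and the noncoding RNA that overlaps it had higher values in hypoxia, and the receptor alone was called. Igf2r (chr17:12682406-12769664, minus strand), a maternally expressed receptor that carries IGF2 and lysosomal enzymes to the lysosome, rose 1.52-fold, from 20.5 FPKM to 31.2 FPKM. Airn, a paternal noncoding RNA that starts inside Igf2r and runs the other way, was at 4.32 FPKM and 6.997 FPKM (q = 0.417 in the authors' deposited table). The gene bodies overlap by 28354 bases, but their annotated exons do not. Igf2r stood at 4.75 times the level of Airn in normoxia and at 4.46 times that level in hypoxia. Both rows of the table give the same locus, as do those of other pairs, among them Mest and Copg2, Gnas and Nespas, and H13 and Mcts2.

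At the Gnas-Nespas domain Gnas (chr2:174284320-174346744, plus strand), the gene of the stimulatory G protein alpha subunit with several imprinted promoters, was the highest member, and it rose 1.39-fold, from 793 FPKM to 1103 FPKM. Its antisense RNA Nespas was not tested and was at 0.0728 FPKM and 0.0696 FPKM. The table gives 1 level for all Gnas promoters. Exons on the other strand cover 22.0% of the exon bases of Gnas, and besides Nespas they belong to Gm20721, which was at 3.59 FPKM and 6.95 FPKM without a call.

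Rasgrf1 (chr9:89909908-90026977, plus strand), a paternally expressed exchange factor that activates Ras, rose 4.37-fold from a low level, 0.153 FPKM (normoxia) and 0.667 FPKM (hypoxia). It ranks 326 among the 4219 measurements called higher in the authors' deposited table. Its flanking gene Tmed3, a cargo receptor gene of the secretory pathway, rose from 21.3 FPKM to 32.6 FPKM, and Ctsh, a lysosomal protease gene on the other side, was at 4.05 FPKM and 4.78 FPKM without a call.

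The other members that fell did so by less than 1.5-fold. H13, a signal peptide peptidase gene, fell 1.29-fold, from 105 FPKM to 81.9 FPKM (q = 0.00133 in the authors' deposited table). Mcts2, a paternally expressed retrogene inside an intron of H13, was at 3.74 FPKM and 3.53 FPKM (q = 0.935 in the authors' deposited table). Peg10, a paternally expressed gene derived from a retrotransposon, fell 1.28-fold, from 2.33 FPKM to 1.81 FPKM (q = 0.00211 in the authors' deposited table). Sgce, the sarcoglycan gene whose outermost 5′ end is 99 bases from that of Peg10, was at 27.5 FPKM and 28.5 FPKM (q = 0.670 in the authors' deposited table). Dcn, a collagen-binding proteoglycan gene, fell 1.201-fold, from 28.8 FPKM to 24.0 FPKM (q = 0.0159 in the authors' deposited table). Impact, whose product restrains the kinase GCN2, fell 1.19-fold, from 10.9 FPKM to 9.14 FPKM (q = 0.0212 in the authors' deposited table).

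**Figure D2:**
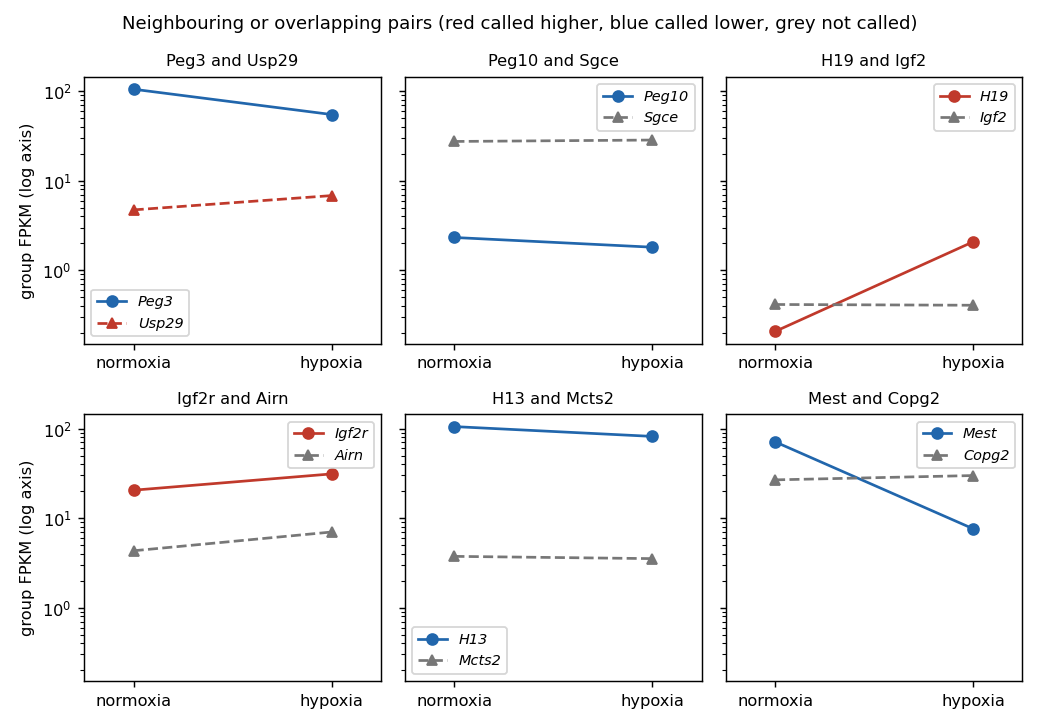
FPKM in normoxia and hypoxia for neighbouring or overlapping gene pairs (log axis; 1 point per group, without error bars). Peg3 and Usp29 converge, H19 and Igf2 stand apart in hypoxia, and Mest falls below its neighbour Copg2, which was at 26.8 FPKM and 29.9 FPKM.

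The remaining tested members were not called. Grb10, an adaptor that restrains insulin signalling, was at 16.3 FPKM and 17.1 FPKM, and Zrsr1, a splicing factor retrogene, was at 7.18 FPKM and 8.82 FPKM. Cdkn1c, a maternally expressed inhibitor of cyclin-dependent kinases that is known to restrain growth, was at 5.25 FPKM and 5.33 FPKM (q = 0.930 in the authors' deposited table). Phlda2, a maternally expressed gene that restrains placental growth, was at 0.439 FPKM and 0.649 FPKM. Plagl1, a paternally expressed zinc finger factor, was at 0.703 FPKM and 0.493 FPKM (q = 0.143 in the authors' deposited table). A q above the threshold does not show that the levels were alike.

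The 13 members that were not tested were at most at 0.227 FPKM in either group. In the Dlk1-Meg3 domain Dlk1, Meg3, Rian and Rtl1 were listed at 0 in both groups, and Mirg was at 0.209 FPKM and 0.227 FPKM in a measurement it shares with 9 microRNA genes. Asb4 and Magel2 were also listed at 0 in both groups. Kcnq1ot1 was at 0.0796 FPKM and 0.103 FPKM, and Ascl2, a trophoblast regulator of the same domain, was at 0.0180 FPKM and 0.0602 FPKM. Nnat, a membrane protein gene of the developing brain, was at 0.00964 FPKM in normoxia and listed at 0 in hypoxia. A gene listed at 0 may be one whose estimate failed, and no statement on its absence is made. Among the 35 members 17 were below 1 FPKM in both groups.

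Calls were less frequent among low genes over the whole table, so the members were also counted by level. Below a mean of 1 FPKM 1 of 4 tested members was called (33.3% of all tested measurements at that level). From 1 to 5 FPKM it was 2 of 3 (57.8%), from 5 to 20 FPKM 3 of 7 (64.6%), from 20 to 100 FPKM 6 of 7 (64.1%) and above 100 FPKM 1 of 1 (65.0%). The members' median log2 ratio of (hypoxia FPKM + 1) to (normoxia FPKM + 1), over the 18 members with a mean of at least 1 FPKM, was 0.059, beside 0.0029 over all measurements past that level. It was -0.0077 over members that share under 10% of their exon bases with other genes.

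**Figure D3:**
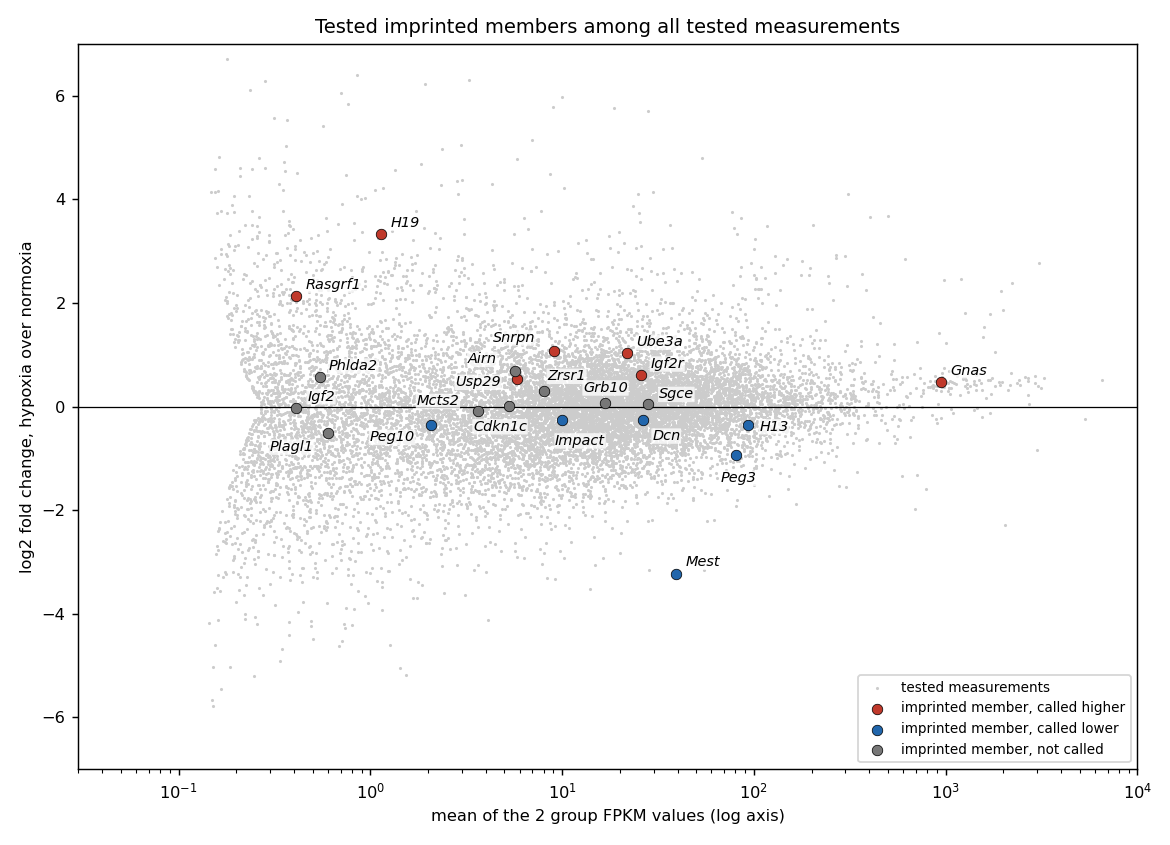
Log2 fold change of hypoxia over normoxia from the authors' deposited table against the mean FPKM of the groups (log axis). Grey points are tested measurements above 0 FPKM in both groups and within the axis limits. Large points, coloured by call, are the 22 tested imprinted members. Mest, with a log2 fold change of -3.22, lies lowest among the members, and H19, with 3.32, lies highest.

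By the parental copy that is generally known to be expressed, the paternally expressed members moved both ways. Of 13 tested, 3 rose (Rasgrf1, Snrpn, Usp29), 4 fell (Mest, Peg3, Peg10, Impact) and 6 were not called, with a median log2 ratio of -0.0077 past the 1 FPKM level and 0.16 past a level of 5 FPKM. Of the 4 maternally expressed members that were tested, 2 rose (H19, Igf2r), none fell and 2 were not called (Cdkn1c, Phlda2). Their median was 0.39 over all 4, 0.58 over the 3 that reached that level and 0.30 past a level of 5 FPKM. With no filter the median was 0.058, but the untested members Zim1, Mirg and Ascl2 then count as well. Of the 5 whose expressed copy depends on isoform or tissue, 2 rose (Gnas, Ube3a), 2 fell (H13, Dcn) and 1 was not called (Grb10), with a median of 0.068. Calls made 53.8% of the tested paternal, 50% of the tested maternal and 80% of the tested dependent members, beside 57.9% of all tested measurements. Among all tested measurements 28.9% were called higher and 29% lower, and the maternal counts rest on 4 genes. The gap between the class medians thus depends on the filter, and with 1 value per group the difference between the classes was not tested.

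**Figure D4:**
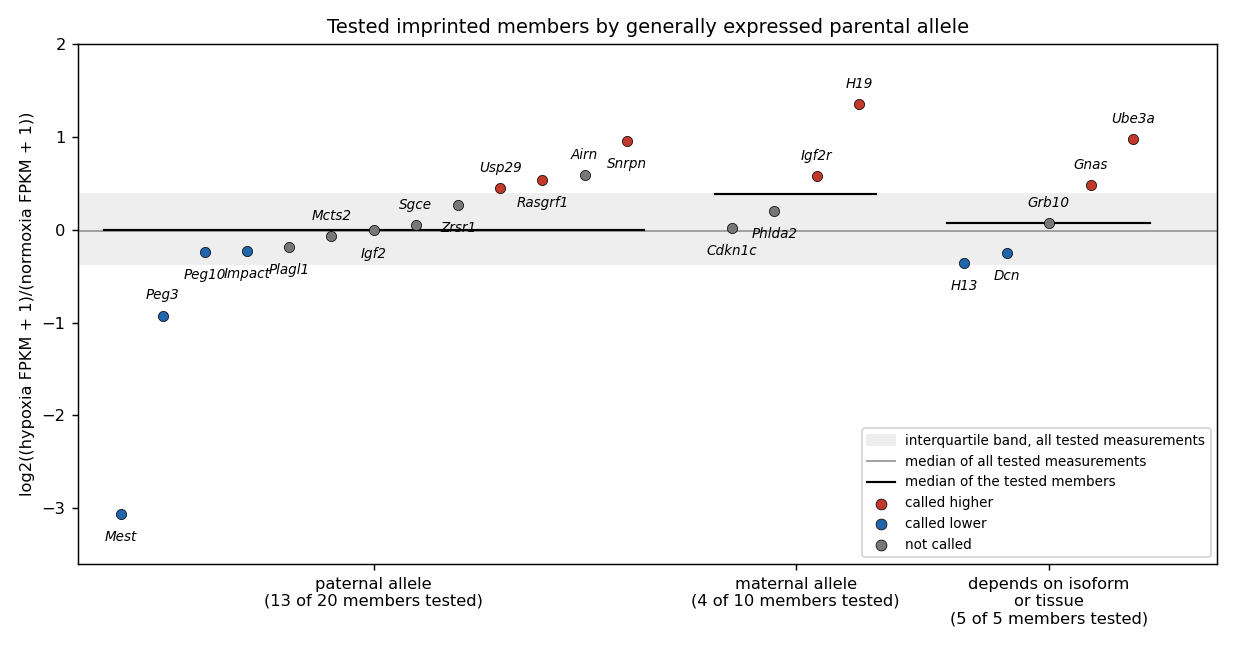
Log2 ratio of (hypoxia FPKM + 1) to (normoxia FPKM + 1) for the tested members by generally expressed parental copy, coloured by call (1 point per gene, bars are medians of the tested members of each class, grey band is the interquartile range of all tested measurements). Among the paternally expressed members Mest lies furthest below, and H19 lies highest among all classes.

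Genes reported as imprinted outside these 35 gave 45 further measurements, of which 27 were tested. Of these 8 rose, 10 fell and 9 were not called, 66.7% called, beside 57.9% of all tested measurements. Sfmbt2, a Polycomb protein gene, rose 2.66-fold, from 0.408 FPKM to 1.08 FPKM, Ago2, the argonaute protein that cuts RNA, rose 2.55-fold, from 11.1 FPKM to 28.4 FPKM, and Tnfrsf23, a decoy death receptor gene, rose 2.47-fold, from 2.96 FPKM to 7.31 FPKM. Tspan32, a tetraspanin gene, fell 4.15-fold, from 0.839 FPKM to 0.203 FPKM, and the noncoding RNA Peg13 fell 2.00-fold, from 1.45 FPKM to 0.727 FPKM (q = 0.0117 in the authors' deposited table). Tspan32 and Tnfrsf23 lie in the Kcnq1ot1 domain, whose other called genes were Osbpl5 (11.1 FPKM to 7.66 FPKM), Nap1l4 (64.1 FPKM to 51.4 FPKM) and Tssc4 (38.1 FPKM to 32.4 FPKM), which fell, and Cd81 (252 FPKM to 307 FPKM), which rose. For Nap1l4, Tssc4 and Cd81 q was 0.00389, 0.0383 and 0.00717 in the authors' deposited table. In the Peg10-Sgce domain Pon2, an antioxidant lactonase gene, fell from 23.3 FPKM to 12.5 FPKM and Casd1, a sialic acid acetyltransferase gene, fell from 8.34 FPKM to 5.30 FPKM. Its other tested genes of the list were not called, with Pon3 at 9.47 FPKM and 9.38 FPKM (q = 0.926 in the authors' deposited table) and Ppp1r9a at 0.613 FPKM and 0.640 FPKM (q = 0.874 in the authors' deposited table). Atp10a in the Ube3a domain fell from 4.67 FPKM to 2.61 FPKM, opposite to Ube3a and Snrpn, and Phactr2 in the Plagl1 domain fell from 0.726 FPKM to 0.376 FPKM.

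Among genes that make, protect or remove imprints, 9 rose and 2 fell. Of 24 symbols 21 were tested, and 10 of these were not called, which leaves 52.4% called, beside 57.9% of all tested measurements. Over all tested measurements 28.9% were called higher and 29% lower, and 9.03% rose at least 2-fold. The 4 rises of at least 2-fold were of the 5-methylcytosine oxidases Tet1 and Tet2 and of the Polycomb subunits Ezh2 and Eed. Tet2 rose 5.62-fold, from 3.59 FPKM to 20.2 FPKM, and Tet1 rose 5.12-fold, from 0.591 FPKM to 3.03 FPKM. Ezh2, the Polycomb methyltransferase, rose 2.498-fold, from 62.2 FPKM to 155 FPKM, and its partner Eed rose 2.26-fold, from 30.8 FPKM to 69.8 FPKM. The oxidase gene Tet3 was at 15.3 FPKM and 16.0 FPKM (q = 0.551 in the authors' deposited table), and the Polycomb gene Suz12 rose 1.48-fold. Zfp57, which guards methylated imprinting control regions, fell 1.51-fold, from 39.3 FPKM to 25.96 FPKM, and the de novo methyltransferase Dnmt3b fell 1.87-fold, from 2.30 FPKM to 1.23 FPKM (q = 0.000395 in the authors' deposited table), while Dnmt3a rose 1.87-fold, from 11.1 FPKM to 20.7 FPKM. Trim28 and Uhrf1 rose 1.28-fold and 1.31-fold (q = 0.0274 and 0.00481 in the authors' deposited table). Zfp445 and Setdb1 were not called (q = 0.711 and 0.114 in the authors' deposited table). Dnmt1, the methyltransferase that copies methylation at replication, was at 73.5 FPKM and 71.2 FPKM (q = 0.707 in the authors' deposited table). Methylation and the parental copy were not measured, so whether imprints changed was not tested.

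**Figure D5:**
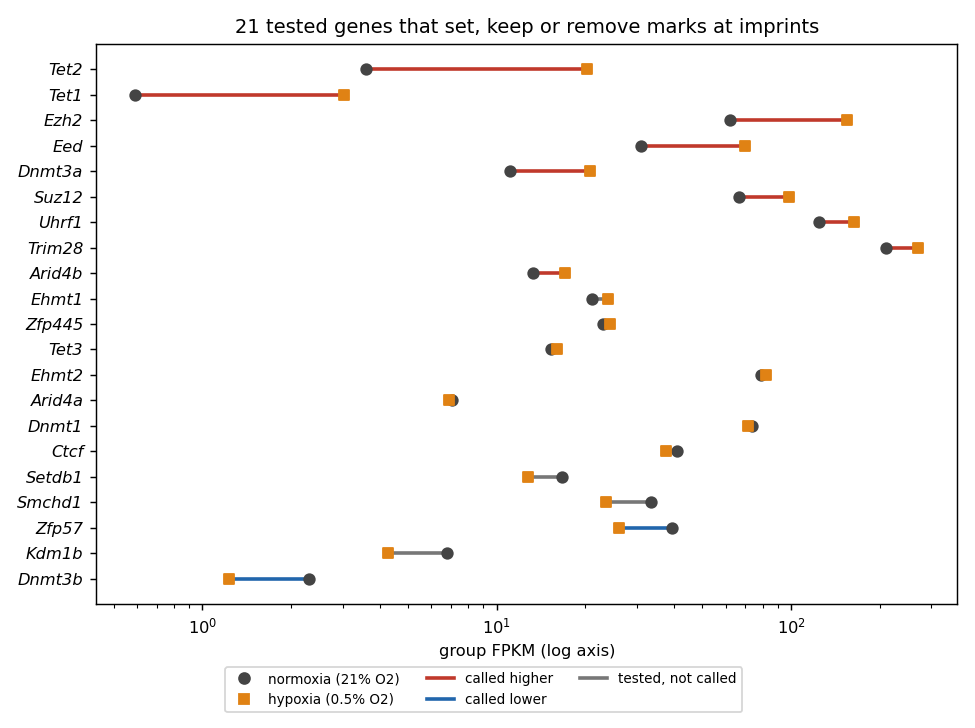
FPKM in normoxia and hypoxia for genes that make, protect or remove imprints (log axis; 1 point per group, without error bars). Tet2 goes from 3.59 FPKM to 20.2 FPKM and Ezh2 from 62.2 FPKM to 155 FPKM, while Zfp57 falls from 39.3 FPKM to 25.96 FPKM and Trim28 rises from 211 FPKM to 271 FPKM.

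On each side of the members of a domain, the nearest tested gene that is in neither imprinted list was also read. Some of these flanking genes, such as Ltv1 and Col1a2, lie among the further imprinted genes, so they are outside the lists and not always outside the domains. The gap to the members ran from 8137 bases (Cct4) to 1396263 bases (Atp2b1), and was 856800 bases for Btg1. Of 33 flanking measurements 9 rose, 10 fell and 14 were not called, 57.6% called, beside 57.9% of all tested measurements. By at least 2-fold, beside 9.03% and 9.87% of all tested measurements, 5 flanking ones rose and 5 fell. The largest changes among them were in Lncpint, in 4732491K20Rik on the Igf2r side of its domain (0.737 FPKM to 0.223 FPKM), and in Pdk4, a pyruvate dehydrogenase kinase gene on the Asb4 side of the Peg10-Sgce domain (2.00 FPKM to 5.90 FPKM). Zfp954, on the Usp29 side of the Peg3 domain, rose from 3.57 FPKM to 9.93 FPKM, and Btg1, an antiproliferative gene that flanks Dcn, rose from 18.0 FPKM to 48.3 FPKM. Rem1 and Id1 on the sides of H13 fell from 3.51 FPKM to 1.27 FPKM and from 65.6 FPKM to 28.4 FPKM, and Ltv1, which flanks Plagl1, fell from 18.1 FPKM to 7.34 FPKM.

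Markers of cell types were read as a check of the label. All 11 fibroblast markers were at 1 FPKM or more in both groups, with a summed level of 2558 FPKM (normoxia) and 3923 FPKM (hypoxia). Vim, which encodes an intermediate filament protein, rose from 883 FPKM to 2249 FPKM, and the other 10 summed to 1675 FPKM and 1674 FPKM. Besides Vim, Fn1 and Twist1 rose (q = 0.00145 and 0.000269 in the authors' deposited table), and Col1a2, Col3a1, Thy1, Pdgfrb and Prrx1 fell (q = 0.0159 for Thy1 in the authors' deposited table). All 4 epithelial markers were at 1 FPKM or more as well, with a summed level of 353 FPKM and 462 FPKM. The keratin Krt18 rose from 313 FPKM to 443 FPKM, whereas its partner Krt8 fell from 28.3 FPKM to 10.1 FPKM and the cadherin Cdh1 fell from 5.93 FPKM to 3.76 FPKM, and Epcam was at 5.97 FPKM and 5.22 FPKM without a call. The trophoblast markers Cdx2, Elf5 and Hand1 were listed at 0, the neuronal ones Rbfox3 and Snap25 were at most at 0.0121 FPKM, and the endothelial ones were at most at 0.0848 FPKM. A further planned neuronal marker, Tubb3, was not found by that name and was not read. Of the blood markers Cd68 alone passed 1 FPKM, and it rose from 1.32 FPKM to 2.27 FPKM (q = 0.00669 in the authors' deposited table). Of the pluripotency markers Nanog alone did, at 1.33 FPKM and 1.23 FPKM. The part of these other markers in the imprinted genes' values was not tested.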

How the data were processed

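RNA from 6 samples, 3 per group, was made into stranded poly-A selected libraries, per the labels' protocols. The submitters' processing notes name Cuffdiff 2.2.1, Cufflinks, HISAT2 2.1.0 and StringTie 1.3.4d, with the build GRCm38. The authors deposited 1 table, which per the file headers holds 1 FPKM for each gene in each group. Its other columns are, per the file headers, a log2 fold change, a test statistic (a score that was left aside), a p-value and a q-value, all computed by the authors. The strand setting of the counting is not stated, so reads of genes with overlapping exons may not be told apart.

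Repeated rows of the same measurement were merged, so 53207 rows became 51482 measurements, and 99.6% of the identifiers are in GENCODE M21, which gave the coordinates (1-based). With 1 value per group no test could be made here. Calls are the authors', at q below 0.05, and folds are ratios of their FPKM values. Medians use log2((hypoxia + 1)/(normoxia + 1)) where the mean FPKM reached 1, which understates the change of low genes. The imprinted members and the lists were chosen with earlier results of these data known. Named were all 35 members and, from the further imprinted, imprint maintenance and flanking lists, called genes that changed at least 2-fold, at most 8 a list, with called imprinted genes inside a member's domain. Other genes, overlapping partners and flanking neighbours with smaller changes among them, and the pairs compared were named after their values were seen. The counting and median steps were tested on simulated data. Python 3.11.15, pandas 2.3.3 and numpy 2.4.6 were used. The alternatives tried are in the closing section.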

Additional observations from a re-analysis of the deposited data

How the results depend on the processing

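With a change of at least 2-fold required, 4 members had risen and 1 had fallen (7 and 6 without it), with 1 paternally expressed member fallen and 1 maternally expressed member risen. The further imprinted genes then had 3 risen and 2 fallen, the maintenance genes 4 and 0, and the flanking genes 5 and 5. Of the 13 called members, Peg3, Peg10, Usp29, Dcn, Igf2r, Impact, H13 and Gnas were not past 2-fold, and Dcn and Impact were not past a q of 0.01. An alternative chosen after seeing the data took only members with under 10% of their exon bases covered by exons of other genes. It left 3 members risen, 1 of them paternally expressed, 5 fallen, and a median log2 ratio of -0.0077, where that over all members was 0.059. Counting the members whose copy depends on isoform or tissue as maternal gave 4 risen and 2 fallen maternal members, and taking only measurements with a single gene name gave 1 risen. With a filter of 5 FPKM the median of the paternally expressed members was 0.16, that of the further imprinted genes 0.027 and that of the Peg10-Sgce domain 0.050, against -0.0077, -0.014 and -0.096. That Peg10-Sgce value of 0.050 is the value of Sgce alone. The further imprinted genes had a median of 0.0035 with no filter and 0.027 with single gene names. Rescaling by the median of ratios, a factor of 1.004, moved the flanking median from 0.0029 to -0.0034. The median of the H19-Igf2 domain, 1.35, is the value of H19 alone, because Igf2 did not reach 1 FPKM. It was 2.82 with a pseudocount of 0.1, again for H19 alone, and 0.67 with no filter, where Igf2, which was tested, counts too. The median of the maternally expressed members, 0.58, was between 0.058 (no filter) and 0.97 (under 10% exon overlap), and that of the Peg3 domain, -0.24, was -0.013 with no filter. Without the filter, genes that were not tested also count. These maternal and Peg3 medians are among 117 comparisons of list and domain results with an alternative in which no direction changed, counts lay within 1.5 times of the reported count and medians within 0.585 on the log2 scale. In 17 other comparisons a count or median moved by more than that, and in 7 the direction of a median was reversed. For domains with 1 member, such as Mest, a changed filter often returns the same value by construction. The limit of 0.585 is also wide beside the quartiles of all tested log2 ratios, -0.371 and 0.383. The 117 therefore do not measure how stable the results are. No paired analysis was possible because the table holds 1 value per group, and leaving out a replicate was not run for the same reason. Depth is unknown, so no precision could be set for the low members, which include H19 in normoxia and Rasgrf1.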
